A study of Mus musculus with 2 samples.

Results

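The genes described are the core splicing factors and heterogeneous nuclear ribonucleoproteins (hnRNPs) of the mouse, read in 2 RNA sequencing libraries of pancreatic islets. They were picked out by a naming rule, as the protein-coding genes named Srsf with a number, Hnrnp, Sf3a or Sf3b with a number, Snrp, or Clk1 to Clk4, together with Tra2a, Tra2b, U2af1 and U2af2. This gave 59 members of the 44713 genes in the count table. Of these, 11 encode SR proteins, 2 TRA2 proteins, 4 CLK kinases, 2 U2AF subunits, 8 SF3A or SF3B subunits, 12 Sm, U1 or U2 proteins and 20 hnRNPs. A further 3 names that fit the pattern are pseudogenes and were left out.

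The db/db library came from C57BL/6 mice with the genotype label Lepr-/-, mice without a functional leptin receptor that serve as a model of obesity and type 2 diabetes. The db/m library came from C57BL/6 mice whose label reads wild type. Per the labels, islets were freed with collagenase, purified on a Histopaque density gradient and used at once for RNA, from which ribosomal RNA was removed. Neither the age nor the number of the animals behind each library is stated in the labels, and with 1 library per group no difference below has a replicate check.

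The db/db library held 18233695 counts and the db/m library 16271129. Lepr itself had 3 counts in db/db islets, against 4 in db/m islets, too few to compare, and counts per gene were not a check of the genotype label. Most RNA in the islet preparations was exocrine, since 27 acinar markers took 72.3% of counts in db/db islets, against 71.6% in db/m islets. The 19 markers of islet endocrine cells took 0.227% of counts in db/db islets, against 0.166% in db/m islets, and all 19 were detected in both libraries. Single endocrine markers moved strongly both ways, with 7 of the 19 called at least 2-fold higher and 5 lower in db/db islets. Sst, the somatostatin gene of delta cells, had 723 counts in db/db islets, against 65 in db/m islets, and Slc30a8, the zinc transporter of insulin granules, had 66 in db/db islets, against 227 in db/m islets. Of 11 leukocyte markers, 4 were at 0 in db/db islets, against 2 in db/m islets. Others went the other way, with Lyz2 at 95 counts in db/db islets, against 33 in db/m islets. The whole leukocyte list took 0.000883% of counts in db/db islets, against 0.000645% in db/m islets. Markers of duct, endothelial, fibroblast, leukocyte and dividing cells took at most 0.0305% of counts per list in db/db islets, against 0.0391% in db/m islets. Immediate early genes and heat shock genes also moved between the libraries. In db/db islets 13 of 15 compared immediate early genes and 12 of 13 heat shock genes were at least 2-fold lower. The immediate early list took 0.0154% of counts in db/db islets, against 0.0857% in db/m islets, and the heat shock list 0.0304% in db/db islets, against 0.168% in db/m islets. The part of the endocrine, immediate early and heat shock genes in the ratios below was not tested. Fewer cells of a type and less RNA per cell cannot be told apart in bulk RNA.

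Splicing removes introns from precursor messenger RNA and joins the exons. The U1 particle recognises the start of the intron, and U2AF and the U2 particle with its SF3A and SF3B proteins recognise its end and the branch point. SR proteins mostly promote the use of exons, many hnRNPs oppose it, and CLK kinases phosphorylate SR proteins in the nucleus. Many SR and hnRNP genes limit their own level through alternative exons that lead their transcripts to decay.

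No compared member differed 2-fold between the libraries. A gene was compared where the mean of the 2 libraries was at least 1 CPM (counts scaled by library size), and called where the ratio of db/db over db/m was at least 2-fold either way with a 95% counting interval that excludes 1. Of the 57 members compared, 0 were called higher and 0 lower, against 3.83% of all 10300 genes compared that were called higher and 4.04% called lower. Sf3a2 alone passed the limit, as higher, when the libraries were scaled by total counts without acinar and islet hormone genes. With 1 library per group no p-value can be given, and the interval covers counting error only. The other members, Snrpg with 9 counts in db/db islets, against 4 in db/m islets, and Srsf12 with 4 in db/db islets, against 0 in db/m islets, were too thinly read to compare. In 50 of the 57 compared members the whole interval lay within 2-fold of equality, which held for 71.7% of all genes compared. All 32 members that averaged 10 CPM or more were among these 50, beside 94.6% of all genes at that level.

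Smaller differences ran in both directions. At a limit of 1.5-fold, Sf3a2 and Snrpd2 were higher in the db/db library, and Tra2a, Snrpa1 and Srsf10 were lower. These are 2 higher and 3 lower of 57 members, against 8.63% and 8.87% of all genes compared. Whatever the size of the ratio, the interval lay above 1 in 8 members (background 20.7%) and below 1 in 21 (background 18.2%). At 10 CPM and above the interval lay above 1 in 5 of 32 members (background 28.9%) and below 1 in 16 (background 23%). The counts below 1 depended on how the libraries were scaled. The main scaling was by the trimmed mean of M values (TMM). With total counts every log2 ratio was larger by 0.18, and the interval lay above 1 in 18 members (background 35.2%) and below 1 in 7 (background 9.85%).

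Under all 4 scalings tried, 7 members had an interval above 1, namely Clk4, Hnrnpk, Hnrnpl, Hnrnpul1, Sf3a2, Snrpd2 and Srsf2 (12.3%, background 20.1%). Another 6 had an interval below 1 under all 4, namely Clk1, Hnrnpc, Snrpa1, Srsf1, Srsf10 and Tra2a (10.5%, background 8.63%). In 0 members did the interval change sides between scalings.

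The median log2 ratio of the 57 members was -0.11, beside 0.02 for all genes compared. This gap of -0.13 is the same under any scaling, because a scaling shifts all genes alike. Among genes with at least 10 CPM the median was -0.17 for the 32 members and 0.04 for all 4148 genes. Of the 57 members, 16 (28.1%) lay among the lowest 25% of all genes by ratio and 9 (15.8%) among the highest 25%. Of the 32 members at 10 CPM, set against genes at that level, 16 lay among the lowest 25% of all genes by ratio and 5 among the highest 25%. The standard deviation of log2 ratios was 0.34 over 57 members and 0.65 over all genes compared. At 10 CPM the standard deviation was 0.30 for members and 0.53 for all genes. The interquartile range was 0.44 for the 57 members and 0.55 for all genes compared. At 10 CPM the interquartile range was 0.41 for members and 0.41 for all genes. Together the members held 23932 counts, 0.131% of the db/db library (exact binomial 95% interval 0.13% to 0.133%), and 19867 counts, 0.122% of the db/m library (0.12% to 0.124%). The summed counts of the compared members had a ratio of 0.952 (0.934 to 0.97) under TMM and of 1.07 (1.05 to 1.1) with total counts, so the direction of this sum also turned with the scaling.

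**Figure D1:**
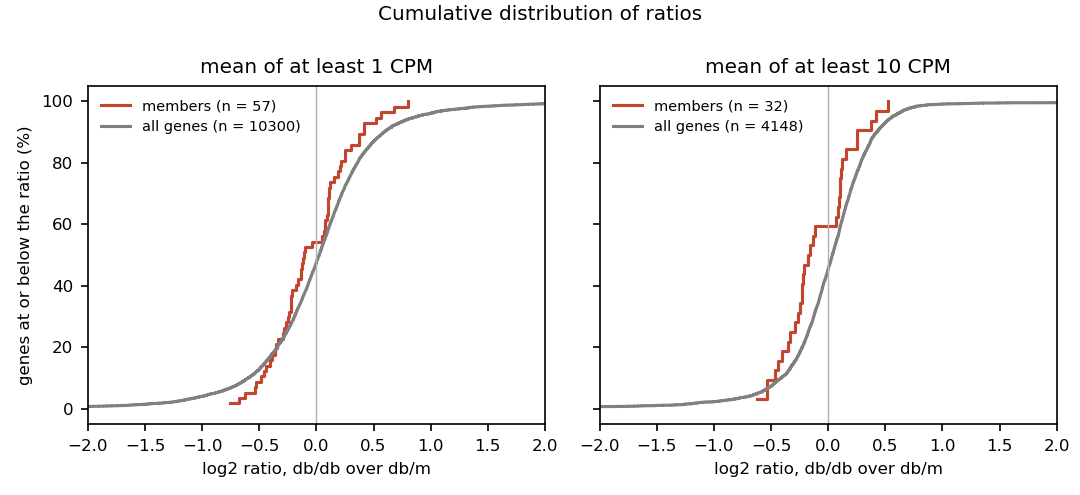
Cumulative share of genes (percent, vertical axis) at or below each log2 ratio of db/db over db/m (horizontal axis, cropped at 2 either way), for genes that average 1 CPM or more (left) and 10 CPM (right). The red line of the members runs left of the grey line of all genes over most of the right panel, where the medians are -0.17 and 0.04, and it ends inside 2-fold in both panels.

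SR proteins carry RNA recognition motifs and a tail rich in arginine and serine. Srsf10, whose product becomes a splicing repressor when its phosphates are removed, had 412 counts (21.3 CPM) in db/db islets, against 502 (32.8 CPM) in db/m islets. Srsf1, the founding SR protein, had 399 counts (20.6 CPM) in db/db islets, against 458 (29.9 CPM) in db/m islets. Both scaled levels were thus lower in db/db islets. The ratio was 0.649 for Srsf10 (0.568 to 0.74) and 0.689 for Srsf1 (0.601 to 0.789). Srsf7, an SR protein with a zinc knuckle that also takes part in RNA export, had 238 counts in db/db islets, against 259 in db/m islets, a ratio of 0.726 (0.606 to 0.869).

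Other SR genes lay nearer to equality under TMM. Srsf2, which binds exonic enhancers, had 863 counts in db/db islets, against 573 in db/m islets, a ratio of 1.19 (1.07 to 1.33). Srsf6 had 2811 counts in db/db islets, against 2088 in db/m islets, the most counts of any member, and a ratio of 1.06 (1.01 to 1.13). Its interval, the tightest of the members, ends at 1.13-fold under TMM and covers counting error only. The log2 ratio of Srsf6 was 0.09 under TMM and 0.26 with total counts. Srsf3, the smallest of the family, stood at 1.07 (0.884 to 1.3). Srsf5 and Srsf11 were at 0.856 and 0.855, with intervals below 1 under TMM and log2 ratios of -0.05 each with total counts. Srsf4 and Srsf9 had intervals on both sides of 1. Across the 10 compared SR genes the log2 ratio ran from -0.62 to 0.25 with a median of -0.17, and the interval lay below 1 in 5 (background 18.2%) and above 1 in 2 (background 20.7%) under TMM. With total counts it lay below 1 in 3 (background 9.85%) and above 1 in 2 (background 35.2%).

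TRA2 proteins bind purine-rich exonic enhancers and resemble SR proteins. Tra2a (chromosome 6, 49243921 to 49264248 in GRCm38.p6) had 144 counts (7.43 CPM) in db/db islets, against 192 (12.5 CPM) in db/m islets. Tra2b (chromosome 16, 22244552 to 22266005) had 272 counts (14 CPM) in db/db islets, against 181 (11.8 CPM) in db/m islets. The related genes lay on opposite sides of equality. The ratio of Tra2a was 0.593 (0.474 to 0.74), the lowest among the members compared and at percentile 6.64 of all genes compared, and that of Tra2b was 1.19 (0.981 to 1.44), with 1 inside the interval under TMM and not with total counts.

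The 4 CLK kinases also parted. Clk4 (chromosome 11, 51263114 to 51281770) had 483 counts (24.9 CPM) in db/db islets, against 266 (17.4 CPM) in db/m islets. Clk1 (chromosome 1, 58411988 to 58424088) had 433 counts (22.3 CPM) in db/db islets, against 495 (32.3 CPM) in db/m islets. Clk4 was thus higher in the db/db library, with a ratio of 1.44 (1.23 to 1.67), and Clk1 lower, with a ratio of 0.691 (0.606 to 0.788). Clk2 had 154 counts in db/db islets, against 159 in db/m islets, a ratio of 0.765 (0.609 to 0.961). Clk3 had 285 and 276 counts in the db/db and db/m libraries, a ratio of 0.816 (0.689 to 0.967). Clk2 and Clk3 were below 1 by interval under TMM, and their log2 ratios were -0.21 and -0.12 with total counts. The SRPK kinases phosphorylate SR proteins in the cytoplasm, and Srpk1 had 623 counts in db/db islets, against 352 in db/m islets, a ratio of 1.4 (1.23 to 1.6). Srpk2 had 170 counts in db/db islets, against 134 in db/m islets, a ratio of 1 (0.795 to 1.27), and Srpk3 had 0 in both libraries.

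Promoter windows of RefSeq (GRCm38.p6, 250 bases before to 50 after a start listed for the gene) were found for 51 of the 59 members. Some of these starts lie inside the gene's span, and most of the Tra2a window lies within the span given above. The windows of Tra2a, Tra2b and Clk4 are shown because Tra2a lay opposite its relative Tra2b, and Clk4 opposite its relative Clk1, which is not among the 51. They are read 5′ to 3′ on the gene's strand from chr6:49264003-49264302 (minus strand), chr16:22265956-22266255 (minus strand) and chr11:51262864-51263163 (plus strand). Capitals mark matches on either strand to any of 6 motifs: the cyclic AMP response core site TGACG, the full element TGACGTCA, which holds the core site on both strands, the heat shock element GAANNTTC, the ETS motif CCGGAAG, the TATA box TATAAA and the E-box CACGTG.
Tra2a: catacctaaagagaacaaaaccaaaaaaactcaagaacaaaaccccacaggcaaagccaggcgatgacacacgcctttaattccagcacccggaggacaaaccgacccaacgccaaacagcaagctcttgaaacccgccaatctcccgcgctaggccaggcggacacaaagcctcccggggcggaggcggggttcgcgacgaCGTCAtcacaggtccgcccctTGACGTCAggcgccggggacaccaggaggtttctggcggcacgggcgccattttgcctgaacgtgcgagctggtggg
Tra2b: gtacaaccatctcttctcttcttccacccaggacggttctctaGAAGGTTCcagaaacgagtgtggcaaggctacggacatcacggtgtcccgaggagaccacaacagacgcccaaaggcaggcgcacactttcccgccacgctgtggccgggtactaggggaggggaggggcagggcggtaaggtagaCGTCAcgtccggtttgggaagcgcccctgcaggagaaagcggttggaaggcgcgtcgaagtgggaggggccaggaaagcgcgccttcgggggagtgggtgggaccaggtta
Clk4: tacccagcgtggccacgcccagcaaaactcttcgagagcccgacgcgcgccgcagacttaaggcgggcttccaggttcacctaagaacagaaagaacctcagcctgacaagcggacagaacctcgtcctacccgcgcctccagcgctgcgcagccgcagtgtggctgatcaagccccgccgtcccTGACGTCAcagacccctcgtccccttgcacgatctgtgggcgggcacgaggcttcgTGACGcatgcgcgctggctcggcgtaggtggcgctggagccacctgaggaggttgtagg

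**Figure D2:**
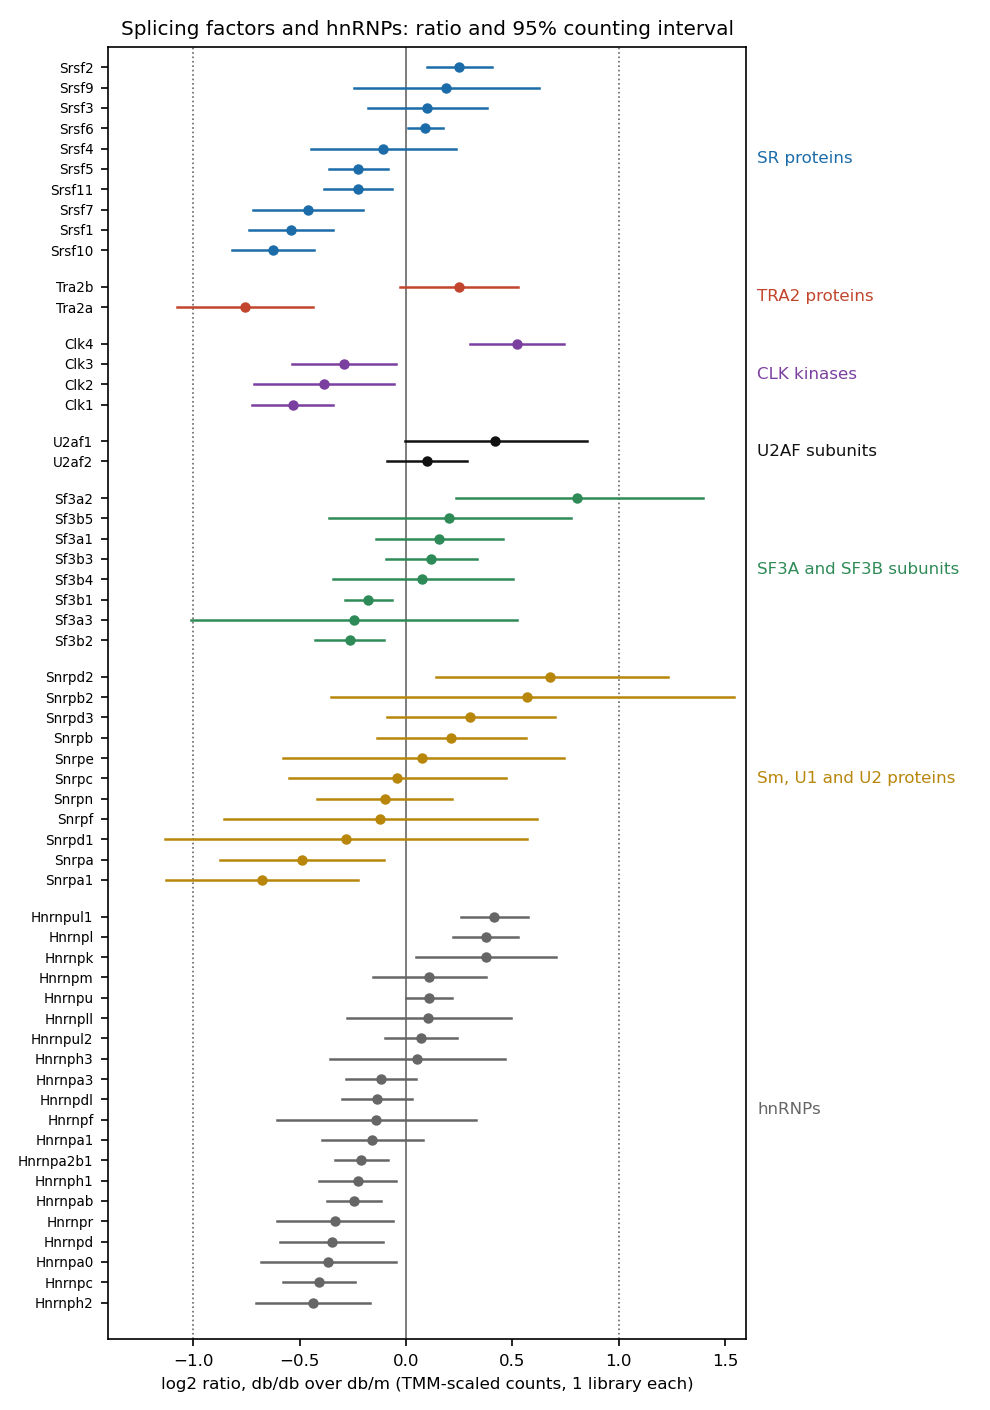
Log2 ratio of db/db over db/m (horizontal axis, TMM-scaled counts of 1 library each) for the 57 compared members, grouped by role. Points are ratios, bars are 95% counting intervals and dotted lines mark 2-fold; no point passes them, and the points run from -0.75 for Tra2a to 0.80 for Sf3a2.

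U2AF binds the end of the intron as a dimer of a small and a large subunit. U2af1, the small subunit that reads the last bases of the intron, had 127 counts in db/db islets, against 75 in db/m islets, a ratio of 1.34 (0.998 to 1.81). U2af2, the large subunit that binds the pyrimidine tract, had 554 counts in db/db islets, against 409 in db/m islets, a ratio of 1.07 (0.94 to 1.22). Neither difference was larger than counting error under TMM, while both intervals lay above 1 with total counts.

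SF3A and SF3B hold the U2 particle at the branch point. Sf3b1, the scaffold of SF3B, had 1406 counts (72.6 CPM) in db/db islets, against 1256 (82 CPM) in db/m islets, a ratio of 0.885 (0.819 to 0.955). Its direction rested on the scaling, with log2 ratios of -0.18 under TMM and 0.03 under total counts without acinar and islet hormone genes. Sf3b2, its partner at the branch point, had 635 counts in db/db islets, against 603 in db/m islets, a ratio of 0.832 (0.743 to 0.932). The log2 ratio of Sf3b2 was -0.26 under TMM and -0.09 with total counts. The 6 other subunits included Sf3b3 at 1.09 (0.936 to 1.26) and Sf3a1 at 1.11 (0.907 to 1.37), both with intervals that hold 1 under TMM. Across the 8 subunits the interval lay above 1 in 1 (background 20.7%) and below 1 in 2 (background 18.2%) under TMM. With total counts it lay above 1 in 3 (background 35.2%) and below 1 in 0 (background 9.85%).

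Sf3a2 (chromosome 10, 80798735 to 80804922), a zinc finger subunit of SF3A, had 84 counts (4.34 CPM) in db/db islets, against 38 (2.48 CPM) in db/m islets. Its ratio of 1.75 (1.18 to 2.63) was the highest among the compared members, at percentile 94.2 of all genes compared, and its interval still holds 2-fold. The SF3A partners were closer to equality, with Sf3a3 at 0.843 (0.496 to 1.44). The intervals of the 3 SF3A subunits overlap, and few counts lie behind Sf3a2 and Sf3a3. Sf3a2, Snrpd2 and Snrpa1 are described here because their values stood out.

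The Snrp genes encode the Sm ring that all major spliceosomal particles share, and proteins particular to the U1 or U2 particle. None reached a mean of 10 CPM, so their intervals were wide. Snrpd2, an Sm protein, had 89 counts in db/db islets, against 44 in db/m islets, a ratio of 1.6 (1.1 to 2.35). The other compared Sm genes, Snrpb, Snrpd1, Snrpd3, Snrpe, Snrpf and Snrpn, had ratios of 0.822 to 1.23. Under TMM their intervals held 1. Snrpn, an imprinted neuronal form of the Sm B protein, had 183 counts in db/db islets, against 155 in db/m islets. Snrpa1, a protein of the U2 particle, had 76 counts in db/db islets, against 96 in db/m islets, a ratio of 0.626 (0.457 to 0.854). Snrpa, a protein of the U1 particle, had 110 counts in db/db islets, against 122 in db/m islets, a ratio of 0.713 (0.546 to 0.93). Snrpc, also of U1, stood at 0.972 (0.684 to 1.39). Snrpb2, of U2, went the other way at 1.48 (0.783 to 2.91), on 30 counts in db/db islets, against 16 in db/m islets. By single gene, the interval lay above 1 in 1 of 11 (background 20.7%) and below 1 in 2 (background 18.2%) under TMM. With total counts it lay above 1 in 3 (background 35.2%) and below 1 in 1 (background 9.85%). The summed counts of the 11 compared Snrp genes were 985 in db/db islets, against 793 in db/m islets. This sum had a ratio of 0.982 (0.893 to 1.08) under TMM and of 1.11 (1.01 to 1.22) with total counts.

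The hnRNPs coat nascent transcripts and act in splicing, export and stability. All 20 were compared, and in all 20 the interval lay within 2-fold. This held for 71.7% of all genes compared and for 94.6% of those with at least 10 CPM. Hnrnpul1, an hnRNP U-like protein, had 869 counts (44.9 CPM) in db/db islets, against 515 (33.6 CPM) in db/m islets, a ratio of 1.33 (1.19 to 1.49). Hnrnpl, which binds CA-rich RNA, had 932 counts (48.1 CPM) in db/db islets, against 568 (37.1 CPM) in db/m islets, a ratio of 1.3 (1.17 to 1.44). Hnrnpk, which binds C-rich RNA, had 205 counts in db/db islets, against 125 in db/m islets, with the same ratio of 1.3 and a wider interval (1.03 to 1.63). These 3 of 20 were the hnRNP genes with an interval above 1 under TMM (background 20.7%).

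Below equality stood Hnrnpc, which binds uridine tracts and shields cryptic exons. It had 562 counts (29 CPM) in db/db islets, against 589 (38.5 CPM) in db/m islets, a ratio of 0.754 (0.671 to 0.848). Hnrnph2, an X-linked binder of G-rich RNA, had 228 counts in db/db islets, against 244 in db/m islets, a ratio of 0.739 (0.614 to 0.888). Hnrnpd, also known as AUF1 for its binding of AU-rich elements, had 282 and 284 counts in the db/db and db/m libraries, a ratio of 0.785 (0.663 to 0.929). Of these 3, the interval of Hnrnpc stayed below 1 under all 4 scalings. Hnrnpa0, Hnrnpr, Hnrnpab, Hnrnph1 and Hnrnpa2b1 also had intervals below 1 under TMM, with ratios of 0.776 to 0.865. The interval thus lay below 1 in 8 of 20 under TMM (background 18.2%). With total counts it lay below 1 in 1 (background 9.85%) and above 1 in 6 (background 35.2%). Under TMM the interval held 1 in the remaining 9, among them Hnrnpa1 at 0.896 (0.76 to 1.06), Hnrnpm at 1.08 (0.899 to 1.3) and Hnrnpu at 1.08 (0.999 to 1.16). Over the 20 genes the summed counts, 10661 in db/db islets, against 8746 in db/m islets, had a ratio of 0.963 (0.936 to 0.991) under TMM and of 1.09 (1.06 to 1.12) with total counts, so the direction of the sum turned with the scaling.

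Related genes were also set against each other within each library, which needs no scaling. The 15 pairs were listed after the values of the members were seen, and 14 had both genes compared. In 6 of the 14 the ratio of ratios had an exact 95% counting interval that excludes 1, beside 37.7% of all 1596 pairs of compared members, so the count is near that background. Clk1 had 0.896 counts for each count of Clk4 in db/db islets, against 1.86 in db/m islets, a ratio of ratios of 0.482 (0.393 to 0.59). Tra2a had 0.529 counts for each count of Tra2b in db/db islets, against 1.06 in db/m islets, a ratio of ratios of 0.5 (0.371 to 0.671). In both pairs the gene with more counts in the db/m library was the gene with fewer in the db/db library. The db/m counts of Tra2a and Tra2b were close, at 192 and 181. For Srsf1 over Srsf9 the ratio of ratios was 0.605 (0.432 to 0.842), for Srsf3 over Srsf7 1.48 (1.13 to 1.93), for Hnrnpul1 over Hnrnpul2 1.27 (1.08 to 1.49) and for Snrpa over Snrpb2 0.482 (0.232 to 0.97). The last rests on 30 counts of Snrpb2 in db/db islets, against 16 in db/m islets.

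In the other 8 pairs the interval held 1. Clk2 over Clk3 was at 0.938 (0.704 to 1.25), Hnrnpa1 over Hnrnpa2b1 at 1.04 (0.859 to 1.25), Hnrnpa1 over Hnrnpa3 at 0.973 (0.795 to 1.19) and Srsf4 over Srsf6 at 0.873 (0.686 to 1.11). These intervals still allow differences either way. The handling of reads that match related copies is a point not given in the sources used here. Single values of close copies are uncertain.

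**Figure D3:**
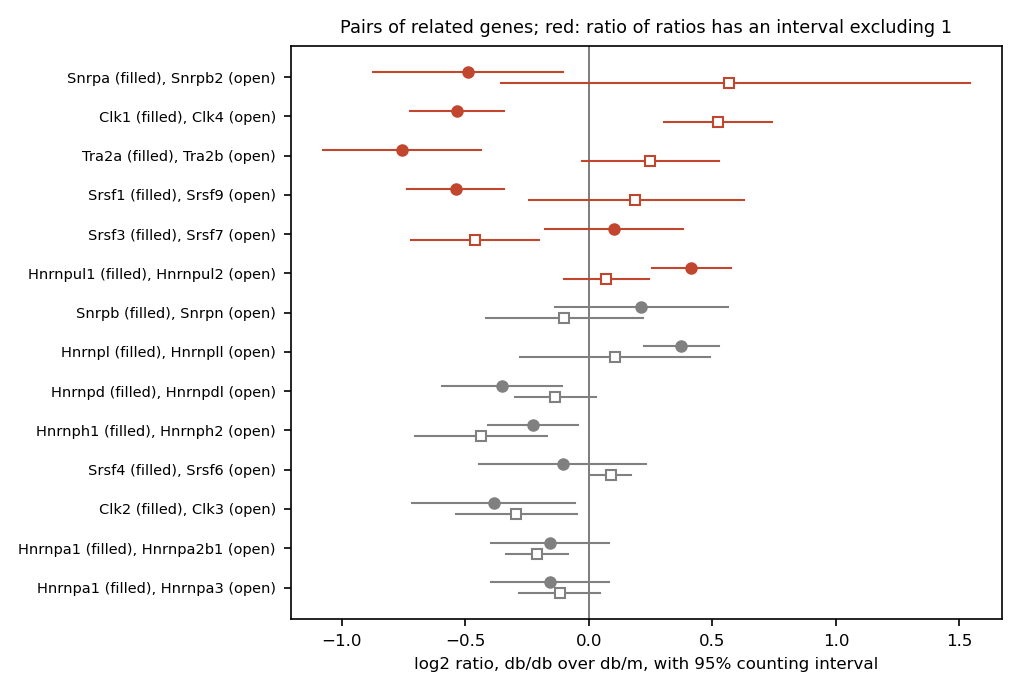
Log2 ratio of db/db over db/m (horizontal axis) with 95% counting intervals for 14 pairs of related genes, the first of each pair as a filled circle and the second as an open square. Pairs in red have a ratio of ratios whose interval excludes 1; Clk1 and Clk4 lie at -0.53 and 0.52, Tra2a and Tra2b at -0.75 and 0.25.

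Among the promoter windows, the full element TGACGTCA stood in those of Tra2a and Clk4, whose ratios lay on opposite sides of 1, and also in those of Snrpa and Snrpg. It was searched after the core site had been seen, and these 4 are 7.84% of 51 members, beside 3.81% of the 7451 compared genes with a window and 2.03% of all 27025 genes with one. The core site stood in 29 of the 51 members (56.9%), beside 37.7% of the compared genes and 23% of all genes. The ratios of members with and without it overlapped. The 28 compared members with it ran from -0.75 to 0.68 on the log2 ratio scale with a median of -0.22, and the 21 without it from -0.46 to 0.80 with a median of -0.10. The ETS motif was found in 16 members (31.4%, against 21.8% of the compared genes) and the heat shock element in 7 (13.7%, against 7.03%). The TATA box was in 7 members (13.7%, against 8.28%) and the E-box in 7 (13.7%, against 12.9%). The median GC content was 61% over the 69 member windows and 61.3% over the windows of all compared genes. A match is a string of letters and shows no binding.

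Members that neighbour each other on a chromosome did not share a ratio throughout. RefSeq places 6 pairs of successive members less than 1 Mb apart. Hnrnpd and Hnrnpdl, 54.4 kb apart on chromosome 5, had log2 ratios of -0.35 and -0.14. Clk4 (0.52) lies 318 kb from Hnrnpab (-0.24) and 877 kb from Hnrnph1 (-0.23) on chromosome 11. Hnrnpa0 (-0.37) and Hnrnpk (0.37) lie 263 kb apart on chromosome 13.

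For 20 of the 59 members the span of the gene overlaps that of another RefSeq gene, and whether counting used strand is a point not given in the sources used here. Srsf2 overlaps 1465 bases of Mfsd11, which had 441 counts in db/db islets, against 256 in db/m islets, a ratio of 1.36 (1.16 to 1.59). The value of Srsf2 is uncertain for that reason. Srsf9, paired with Srsf1 above, overlaps 602 bases of Gatc, which had 208 counts in db/db islets, against 100 in db/m islets. Gatc had a ratio of 1.64 (1.29 to 2.11), so the value of Srsf9 is uncertain too. Hnrnpab overlaps 3165 bases of Phykpl (155 counts in db/db islets, 69 in db/m islets), and Snrpa overlaps 491 bases of BC024978 (129 counts in db/db islets, 83 in db/m islets). The spans of Clk2 (12293 bases) and Snrpn (467683 bases) lie wholly within those of Gm45927 and Snhg14, for which no counts were used here, so the values of both are uncertain too. Clk4 overlaps 549 bases of BC049762, which had 4 counts in db/db islets, against 2 in db/m islets. Hnrnpk contains Mir7-1, a hairpin of the miR-7 family of islet microRNAs, which had 5 counts in db/db islets, against 9 in db/m islets, a ratio of 0.439 (0.116 to 1.46). Hnrnpk also overlaps 1096 bases of Rmi1 (69 counts in db/db islets, 47 in db/m islets), so the value of Hnrnpk is uncertain too.

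Genes of the splicing pathway outside the naming rule were read from 10 lists. At the 2-fold limit, which 3.83% of all genes compared passed as higher and 4.04% as lower, 1 gene was called higher among 28 compared SR-related genes (Scaf8, 33 counts in db/db islets, against 12 in db/m islets), 1 of 4 in the LSM ring (Lsm4, 87 in db/db islets, against 34 in db/m islets) and 1 of 43 other regulators (Rbm38, 56 in db/db islets, against 22 in db/m islets). Under TMM, 0 were called in either direction among kinases (8 genes compared), Snrnp proteins (5), catalytic and PRP proteins (34) and helicases (13). The same held for exon junction and decay factors (13), snRNP assembly (14) and the minor spliceosome (7). Across the 10 lists 0 were called lower under TMM. Median log2 ratios ran from -0.16 for the minor spliceosome to 0.33 for the LSM ring, beside 0.02 for all genes compared. The median was 0.02 for the SR-related genes and 0.02 for the catalytic and PRP proteins. With total counts every log2 ratio was larger by 0.18. That shift takes the helicase Ddx39b (0.85 under TMM) and the assembly gene Smn1 (0.99 under TMM) past 2-fold. Calls in the lists were not counted under other scalings.

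Within these lists the following genes with at least 10 CPM stood at the ends. Ddx5, a helicase that acts in splicing and transcription, had 1135 counts in db/db islets, against 1531 in db/m islets, a ratio of 0.586 (0.542 to 0.633). Rbm3, an RNA-binding protein induced by cold, had 517 counts in db/db islets, against 253 in db/m islets, a ratio of 1.62 (1.39 to 1.88). Both lie below the 2-fold limit, with intervals clear of 1. Safb2 stood at 1.36 (1.17 to 1.59) and Luc7l, a U1-associated protein, at 0.756 (0.63 to 0.906). Smg5, which acts in nonsense-mediated decay, was at 1.31 (1.15 to 1.48), and Upf1, the helicase of that pathway, at 0.849 (0.746 to 0.967). Prpf39 was at 1.25 (1.08 to 1.45), Xab2 at 0.782 (0.639 to 0.958), Rbm10 at 0.74 (0.623 to 0.878), Prpf4b at 0.803 (0.724 to 0.891) and Dhx16 at 1.24 (1.06 to 1.45). Snrnp70 of the U1 particle was at 0.867 (0.801 to 0.939) and Snrnp200 of the U5 particle at 0.995 (0.887 to 1.12). In the list of snRNP assembly, Strap was at 1.13 (0.989 to 1.29) and Wdr77 at 1.09 (0.934 to 1.28). Smn1, the survival of motor neuron protein that loads Sm rings, had 103 counts in db/db islets, against 41 in db/m islets. Its ratio of 1.99 (1.37 to 2.93) lay just inside the limit under TMM, and it passed the limit with total counts. Smn1 was named after its value was seen.

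**Figure D4:**
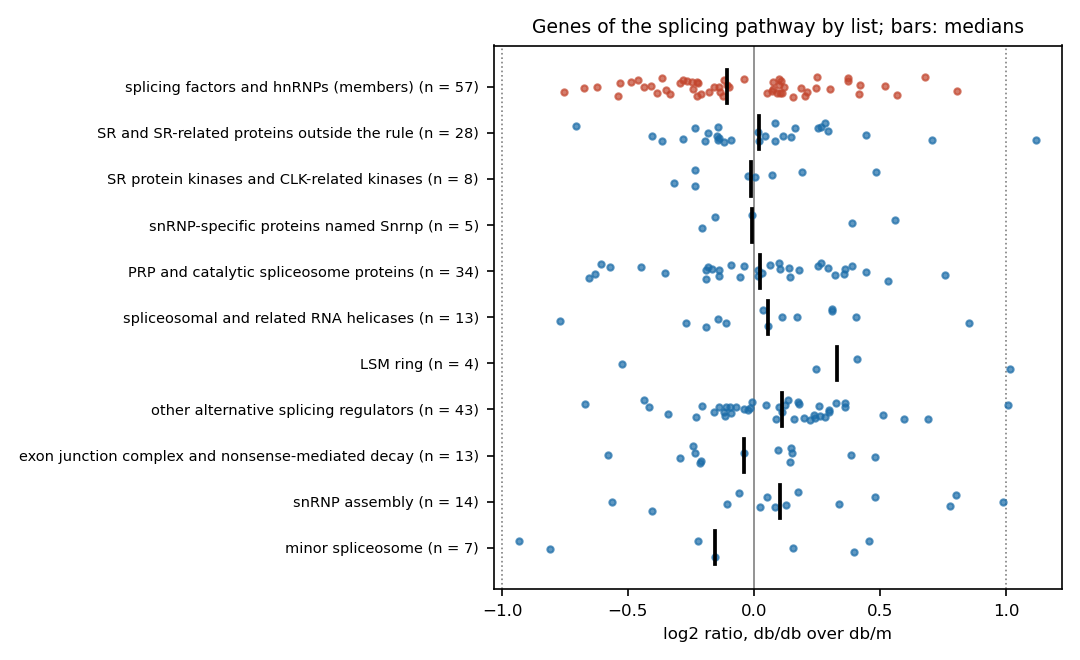
Log2 ratio of db/db over db/m (horizontal axis) of each compared gene for the members (red) and for 10 lists of other splicing genes (blue), with black bars at the medians and dotted lines at 2-fold. Ratios are under TMM. The member median of -0.11 lies left of that of every list but the minor spliceosome at -0.16. The points past 2-fold are Scaf8, Lsm4 and Rbm38.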

How the data were processed

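Whole-number counts per gene, with a gene symbol and class, were deposited by the authors for 1 db/db and 1 db/m library. The authors' aligner was HISAT2 2.0.4 and the builds named are mm10 and GRCm38, per the submitters' processing notes; the program used for counting, its annotation, strand setting and treatment of shared reads are points not given in the sources used here. Groups came from the genotype labels. Counts were scaled with TMM (edgeR 4.0.16, R 4.3.3), under which 1 count stood for 0.0516 CPM in the db/db and 0.0653 CPM in the db/m library. Ratios carry exact 95% Clopper-Pearson counting intervals (scipy 1.17.1, Python 3.11.15), which treat reads as independent molecules. With a library at 0, a floor of 3 counts or the other library's lower count was used. Every member may be named; full values are given for CLK, TRA2 and U2AF genes, for the 3 highest and 3 lowest of each role with at least 10 CPM, and for genes whose values stood out. In each pathway list, called genes and the ends at 10 CPM are named. Members and lists were chosen with earlier results of these data known. On simulated counts for this comparison (10097 genes tested), 100% of genes raised 2.5-fold and 95% of those lowered to 0.4 were called, and 2.5% of those raised 1.5-fold. The simulated counts held counting error only. Changed genes were drawn from those well above the 1 CPM filter, so these rates do not cover the members with the fewest counts. Alternatives were 3 other scalings (one with DESeq2 1.42.0), other filters, fold limits and, added later, leaving out overlapping genes. All 59 symbols matched RefSeq. No protein sequence was used here.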

Additional observations from a re-analysis of the deposited data

How the results depend on the processing

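No paired analysis was possible because each group has 1 library, and leaving out a library would leave no comparison. The count of members called stayed at 0 higher and 0 lower with total counts, DESeq2 size factors, no filter, a mean of 10 CPM, an interval wholly beyond 1.5-fold, and without the members whose span overlaps another gene (37 left). It became 1 higher (Sf3a2, log2 ratio 1.01) under total counts without acinar and islet hormone genes, and 2 higher and 3 lower with a limit of 1.5-fold. The median log2 ratio of members changed sign with the scaling. It was -0.11 under TMM and -0.12 under DESeq2 size factors, but 0.07 under total counts and 0.10 under total counts without acinar and islet hormone genes, where all genes had medians of 0.20 and 0.23. It was -0.10 without a filter, -0.17 at 10 CPM and -0.16 without overlapping members. Of the 57 single ratios, Sf3b1 alone had an interval clear of 1 and changed sign, to 0.033 under total counts without acinar and islet hormone genes. Exon overlap could not be tested, since exon positions were not used here. Depth is a limit for the members with few counts: intervals of 7 members reached beyond 2-fold, 4 of them Snrp genes.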
